A study of Mus musculus with 31 samples.

Results

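The 10 genes of acetylcholine signalling described here were followed through the RNA of the basolateral amygdala (BLA) of 31 mice. They were chosen by symbol as the 4 genes that make, load, recover and break down acetylcholine (Chat, Slc18a3, Slc5a7 and Ache), 4 muscarinic receptors (Chrm1, Chrm2, Chrm3 and Chrm4) and the nicotinic receptor subunits Chrna4 and Chrnb2. All 10 were among the 48709 genes of the count tables, and 9 of the 10 were among the 17428 genes tested, for which 20% of the mice or more had to hold 10 or more reads. Chrm4 was the gene that was not. QuantSeq, which reads only the 3′ end of polyadenylated transcripts, was used on punches of BLA, pooled from the left and right side of each mouse.

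All mice were C57BL/6N, and the transgenic animals carried a bacterial artificial chromosome with human CYFIP1, placed by pronuclear injection. The 16 WT mice were 8 males and 8 females of 58 to 61 days, with 8 from each of the lines labelled 1 and 3. The 15 CYFIP1 OE mice were 7 males and 8 females of 58 to 77 days, with 7 from line 1 and 8 from line 3. The oldest animals, 4 mice of 77 days, were all CYFIP1 OE and all from line 1, and 7 of the 8 WT mice of line 1 shared an age of 61 days and a name prefix, which is called a name group here. Within line 1, age and name group were thus largely confounded with genotype, and 1 name group held 1 mouse of each.

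Cholinergic neurons make acetylcholine from choline with choline acetyltransferase (Chat), load it into vesicles with the vesicular transporter (Slc18a3) and take choline back up through the high-affinity choline transporter (Slc5a7), while acetylcholinesterase (Ache) ends the signal at the synapse. The BLA is known for dense cholinergic input from neurons of the basal forebrain, whose cell bodies lie outside it, and the neighbouring striatum holds cholinergic interneurons. Muscarinic receptors act through G proteins, Chrm1 and Chrm3 mainly through the Gq class and Chrm2 and Chrm4 mainly through the Gi/o class, whereas nicotinic receptors are ion channels, of which the combination of Chrna4 and Chrnb2 is the best known in brain.

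Slc18a3 and Chat share a locus. On GRCm38, Slc18a3 (ENSMUSG00000100241) occupies chr14:32462438-32464850 on the minus strand, inside the span of Chat (ENSMUSG00000021919, chr14:32408203-32465989, minus strand). Of the 7 protein-coding Chat transcripts in the GENCODE annotation, 4 span Slc18a3, and in each of the 4 it lies in the first intron with no exon overlapping it. Slc5a7 (ENSMUSG00000023945) is on another chromosome, at chr17:54273590-54299034 on the minus strand. The sequences upstream of these 3 genes are shown because their levels moved together over the mice, as described further on. They are from the RefSeq promoter table for GRCm38.p6, cut back to the bases that lie upstream of the outermost start in GENCODE and RefSeq, and run 5′ to 3′ on the minus strand. The stretches are chr14:32465990-32466159 for Chat, chr14:32464851-32465100 for Slc18a3 and chr17:54299039-54299284 for Slc5a7. Capitals mark motifs on either strand, which are the CCAAT box, the GC box with the letters GGGCGG, the TATA box with the letters TATAAA, and the E-box with the letters CACGTG.
Chat: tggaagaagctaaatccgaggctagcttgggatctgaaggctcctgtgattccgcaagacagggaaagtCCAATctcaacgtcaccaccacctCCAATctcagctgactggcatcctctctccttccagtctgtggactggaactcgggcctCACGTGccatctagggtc
Slc18a3: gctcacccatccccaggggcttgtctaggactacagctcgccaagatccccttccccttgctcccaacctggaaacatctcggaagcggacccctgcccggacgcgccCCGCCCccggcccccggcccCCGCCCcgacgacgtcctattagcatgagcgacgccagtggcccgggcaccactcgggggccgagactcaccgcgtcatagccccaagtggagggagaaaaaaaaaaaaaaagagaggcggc
Slc5a7: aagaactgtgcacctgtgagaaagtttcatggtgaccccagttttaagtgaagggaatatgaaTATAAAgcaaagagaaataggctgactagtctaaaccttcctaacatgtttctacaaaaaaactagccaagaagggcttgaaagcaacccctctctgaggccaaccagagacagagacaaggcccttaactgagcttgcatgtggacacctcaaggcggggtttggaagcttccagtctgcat
The promoter table held 9 of the 10 genes. In the 250 bases before the RefSeq start, the CCAAT box was present in Chat, Chrm2 and Chrm4, against 33.9% of 32851 promoters. The GC box was present in 5 of the 9 (Slc18a3, Ache, Chrm2, Chrm4 and Chrna4), against 32.7% of all. The TATA box was found in Slc5a7, against 12.4%, and the E-box in Chat and Ache, against 6.02%. TTCAGCACC, the left part of the RE1 element, was found in none of the 9 and in 0.301% of all promoters. The 3 presynaptic genes thus shared none of the 5 motifs, and their GC content in these 250 bases was 54.8% for Chat, 66.0% for Slc18a3 and 45.6% for Slc5a7, beside a median of 52.4%.

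Levels are in CPM, which are read counts divided by the TMM-adjusted total of each mouse and multiplied by 1 fixed factor. A 3′ read count does not grow with transcript length, so CPM of different genes are set side by side on that scale. Chrm1 had the highest level, with a mean of 78.7 ± 12.4 CPM (SD, n = 31), followed by Chrnb2 with 55.8 ± 10.98 and Chrm3 with 29.1 ± 12.1. The middle of the order was Slc5a7 with 15.0 ± 8.30, Ache with 11.7 ± 3.83 and Chrna4 with 11.7 ± 4.20. The lowest tested genes were Chat with 6.42 ± 3.75, Chrm2 with 3.81 ± 2.09 and Slc18a3 with 3.78 ± 2.80. The RefSeq gene ends 224 bases past the end in the GENCODE annotation used here for Chrm2, and 19 bases past it for Chrm1. Whether 3′ reads of these genes went uncounted was not tested. Chrm1 was above Chrnb2 in 26 of 31 mice, Chrnb2 above Chrm3 in 29 and Chrna4 above Chat in 26. Ache was above Chrna4 in 14 of 31 mice and Chrm2 above Slc18a3 in 16, so these neighbours did not differ beyond their spread. Receptors stood both at the top of the order and near its foot.

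**Figure D1:**
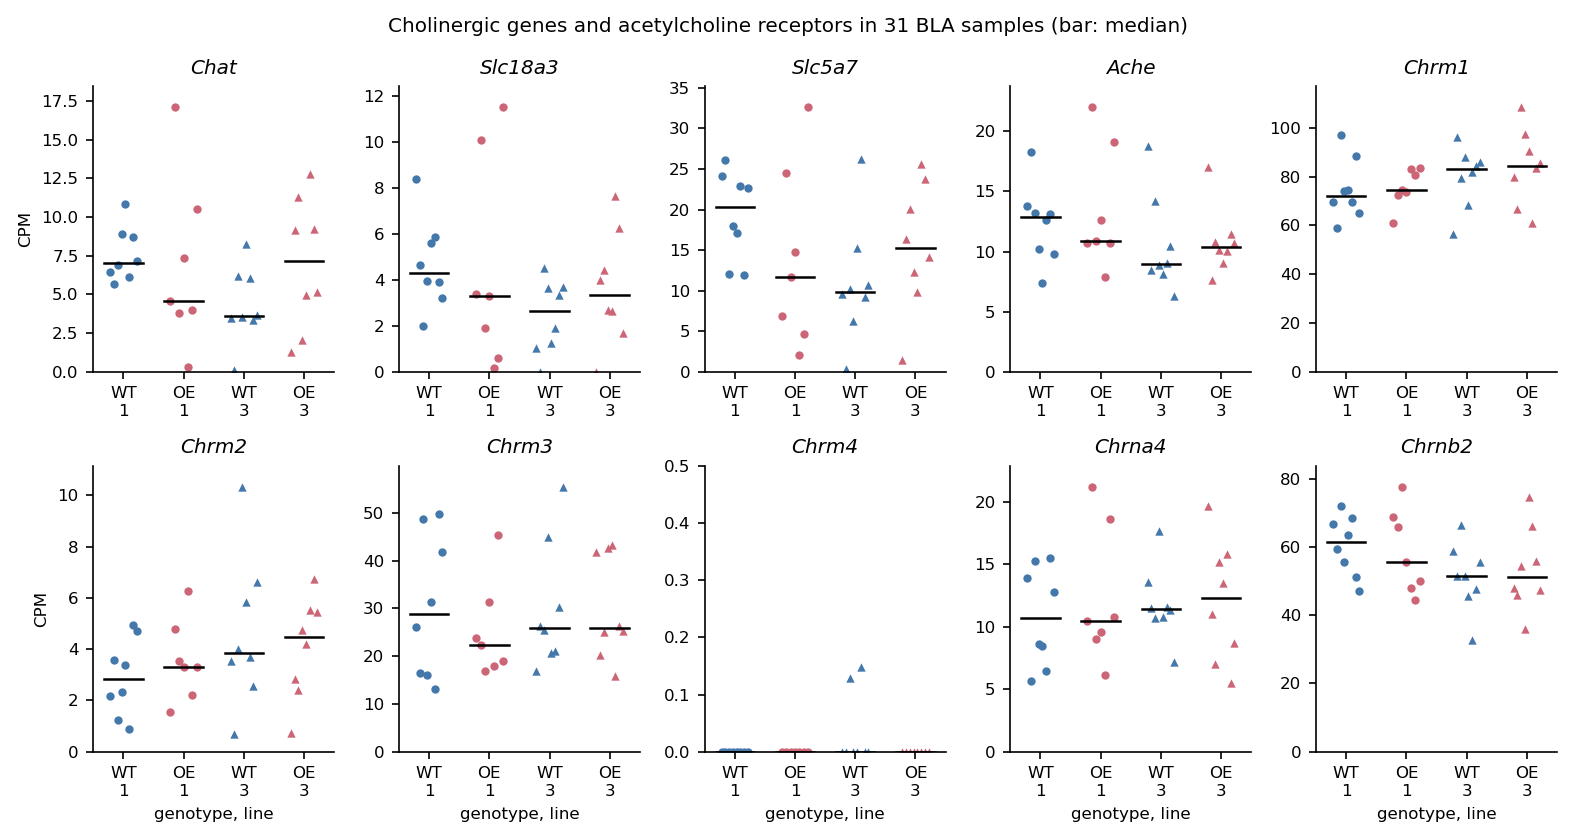
Level of each gene in CPM (linear axes from 0) in each mouse, by genotype and line. Points are mice (blue WT, red CYFIP1 OE, circles line 1, triangles line 3) and bars are group medians. The groups overlap for every tested gene, Chat and Slc5a7 range from near 0 to 17.1 and 32.6 CPM, and Chrm4 is at 0 in 29 of 31 mice.

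Chat, which makes acetylcholine, was at 0.101, 6.15 and 10.8 CPM (lowest, median and highest) in the 16 WT mice and at 0.321, 5.13 and 17.1 CPM in the 15 CYFIP1 OE mice. The CYFIP1 OE values reached both above and close to the bottom of the WT range. By line, WT mice of line 1 kept within 5.67 to 10.8 CPM, and WT mice of line 3 lay from 0.101 to 8.27 CPM. CYFIP1 OE mice lay from 0.321 to 17.1 CPM in line 1 and from 1.25 to 12.7 CPM in line 3. The 4 groups overlapped.

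Slc5a7, the choline transporter, was at 0.404, 13.7 and 26.2 CPM in WT mice and at 1.43, 14.1 and 32.6 CPM in CYFIP1 OE mice, so the WT range lay almost wholly within the CYFIP1 OE range. WT mice of line 1 had a median of 20.4 CPM and none under 11.9, whereas the medians were 9.88 CPM in WT mice of line 3, 11.6 CPM in CYFIP1 OE mice of line 1 and 15.3 CPM in CYFIP1 OE mice of line 3. Slc18a3, the vesicular transporter, was at 0, 3.67 and 8.38 CPM in WT mice and at 0, 3.31 and 11.5 CPM in CYFIP1 OE mice. It had 0 reads in 1 mouse of each genotype, where 3 reads correspond to 0.303 to 0.570 CPM over the mice. Ache, which is also made by cells that receive acetylcholine, was at 6.34, 10.3 and 18.8 CPM in WT mice and at 7.61, 10.7 and 22 CPM in CYFIP1 OE mice, so the highest mouse was 3.47-fold above the lowest.

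Among the receptors, Chrm1 was at 56.3, 77.1 and 97.0 CPM in WT mice and at 60.9, 80.7 and 108 CPM in CYFIP1 OE mice. Chrm3 was at 13.1, 26.2 and 55.4 CPM in WT mice and at 15.9, 25.0 and 45.3 CPM in CYFIP1 OE mice. Chrm2 was at 0.708, 3.57 and 10.3 CPM in WT mice and at 0.717, 3.55 and 6.73 CPM in CYFIP1 OE mice. The genotypes overlapped for all 3 muscarinic receptors, with the highest Chrm3 and Chrm2 values in WT mice and the highest Chrm1 value in a CYFIP1 OE mouse. Chrna4 was at 5.67, 11.4 and 17.6 CPM in WT mice and at 5.48, 10.8 and 21.2 CPM in CYFIP1 OE mice, and Chrnb2 was at 32.6, 55.6 and 71.8 CPM in WT mice and at 36.0, 54.3 and 77.5 CPM in CYFIP1 OE mice. The nicotinic subunits likewise overlapped between the genotypes.

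Chrm4 had 0 reads in 29 mice and 1 read in each of 2 WT mice of line 3. Its model in the GENCODE annotation used here, on GRCm38 at chr2:91927249-91928688 on the plus strand, is 1440 bases long and ends at the stop codon, with 0 bases of 3′ UTR. It is the only 1 of the 10 genes without an annotated 3′ UTR, and the RefSeq gene ends 1147 bases further downstream. The last 30 bases of the GENCODE transcript, shown because the model ends there and with the stop codon in capitals, are as follows.
Chrm4: cagtatcggaacatcggcacagccaggTAG
Reads from a 3′ end beyond that base would not be counted for this model, and whether this set the value of 0 was not tested. The count of 0 is therefore given as a count, with no statement on expression, and Chrm4 enters no comparison.

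The comparison of CYFIP1 OE with WT mice asked whether extra CYFIP1 goes with a different level of these genes. None of the 9 tested genes passed an adjusted p of 0.05 in edgeR's quasi-likelihood test with sex, line and genotype, where 0% of all 17428 genes did, and none had an unadjusted p under 0.05, against 4.3% of all genes. DESeq2's Wald test also gave 0 of the 9 under either threshold for genotype. In 8 of the 9 the fitted log2 fold change was above 0, with a median of 0.04, beside a median of -0.005 over all genes tested. In bulk tissue, fewer cells of a type and less RNA per cell cannot be told apart. Among the presynaptic genes, Chat had a log2 fold change of 0.27 ± 0.36 (SE; edgeR adjusted p = 0.999), with a 95% confidence interval from 0.729-fold to 1.99-fold. Slc18a3 had 0.24 ± 0.44 and Slc5a7 0.01 ± 0.34, with intervals from 0.637-fold to 2.20-fold and from 0.619-fold to 1.64-fold. Differences inside those intervals were not excluded at this depth and spread.

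Chrm1 and Chrnb2 were bounded more tightly. Chrm1 had a log2 fold change of 0.04 ± 0.08, an interval from 0.913-fold to 1.16-fold, and Chrnb2 had 0.02 ± 0.10, an interval from 0.881-fold to 1.17-fold. Chrm3, the 1 gene with a value below 0, had -0.13 ± 0.20, and Chrm2 had 0.04 ± 0.30. Chrna4 had 0.11 ± 0.19 and the esterase Ache 0.10 ± 0.15, and the WT mean was exceeded in 4 of 15 CYFIP1 OE mice for Ache and in 6 of 15 for Chrna4. The smallest unadjusted p among the 9 was 0.456, for Chat.

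**Figure D2:**
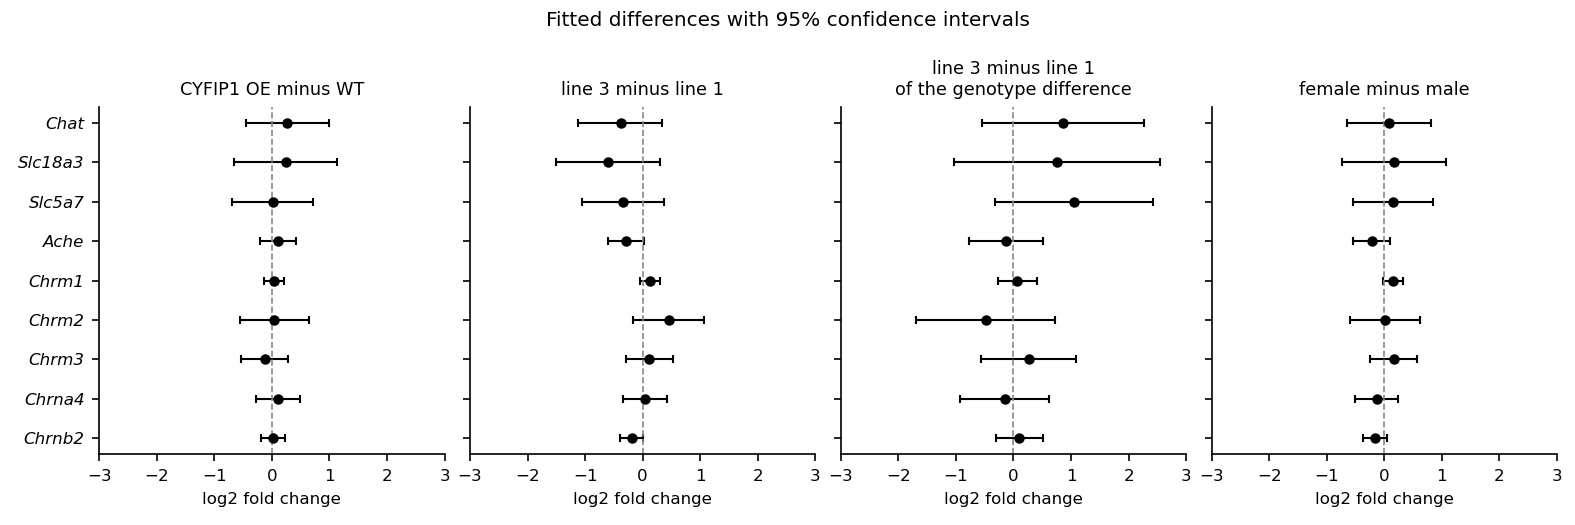
Fitted log2 fold changes (points) with 95% confidence intervals (bars) of the 9 tested genes for genotype, line, their interaction and sex. All 36 intervals include 0, and those of Chat, Slc18a3 and Slc5a7 are wider than those of Chrm1 and Chrnb2 in each panel.

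Between the lines, which also differ in ages and name groups, 0 of the 9 genes passed the adjusted threshold (0% of all genes) and 0 had an unadjusted p under 0.05 (3.31% of all genes). The smallest p-values were for Chrnb2, at a log2 difference of -0.19 ± 0.10 (line 3 minus line 1; unadjusted edgeR p = 0.0618), and Ache, at -0.29 ± 0.15 (unadjusted edgeR p = 0.0700). Chrnb2 had means of 59.5 CPM in line 1 and 52.3 CPM in line 3, and Ache 12.8 and 10.7 CPM. Chat, Slc18a3 and Slc5a7 had log2 differences of -0.39, -0.60 and -0.34, and Chrm2 had 0.45 ± 0.30. Without the 4 mice of the name group X424.C, a choice made after the data were seen, Ache had -0.47 ± 0.15 (unadjusted edgeR p = 0.00365, adjusted p = 0.803) and Chrm2 0.67 ± 0.27 (unadjusted edgeR p = 0.0195). In WT mice alone, where 7 of the 8 mice of line 1 were of 1 name group, the log2 differences were -0.85 for Chat and -0.83 for Slc5a7 (unadjusted edgeR p = 0.0451 and 0.0485, adjusted p = 0.806 and 0.810), and in CYFIP1 OE mice alone they were 0.15 and 0.28.

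The genotype difference of the presynaptic genes had opposite signs in the lines. For Slc5a7 the log2 fold change was -0.61 ± 0.39 in line 1 and 0.50 ± 0.50 in line 3. For Chat it was -0.27 ± 0.40 and 0.74 ± 0.51, and for Slc18a3 -0.29 ± 0.54 and 0.61 ± 0.64. The test of this difference itself, the interaction of line and genotype, gave 1.05 ± 0.68 for Slc5a7 (edgeR adjusted p = 0.722), 0.86 ± 0.69 for Chat and 0.76 ± 0.88 for Slc18a3, and none passed. The summed striatal projection neuron markers, described further on, crossed in the same way. Their means were 1118 ± 206 CPM (SD) in WT and 665 ± 443 CPM in CYFIP1 OE mice of line 1. In line 3 they were 735 ± 521 CPM in WT and 1209 ± 637 CPM in CYFIP1 OE mice. The part of striatal tissue in the signs of the presynaptic genes was not tested. None of the 9 genes had an unadjusted interaction p under 0.05, against 8.1% of all genes, and 0% of all genes passed the adjusted threshold. Between females and males 0 of the 9 genes passed an adjusted p of 0.05, against 0.0631% of all genes, and the smallest unadjusted p was for Chrm1, with 82.7 ± 11.96 CPM in females and 74.5 ± 11.9 CPM in males (log2 difference 0.15 ± 0.08, female minus male; unadjusted edgeR p = 0.0823). None of the 9 had an unadjusted sex p under 0.05, against 4.62% of all genes. Under a stricter unadjusted p of 0.005 there were likewise 0 of the 9 in each comparison, against 0.293% of all genes for genotype, 0.189% for line, 0.843% for the interaction and 0.436% for sex.

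No term of the fit passed for these genes, and the spread itself was largest in the presynaptic genes among the 9. The biological coefficient of variation (CV), edgeR's estimate of the variation between mice beyond counting error, was 80.5% for Slc18a3, 65.7% for Chat and 65.2% for Slc5a7. It was 16.9% for Chrm1 and 19.6% for Chrnb2, 29.1% for Ache, 35.2% for Chrna4, 38.5% for Chrm3 and 53.8% for Chrm2, and the median over all tested genes was 34.2%. Low genes vary more, so each gene is also set beside genes within 1.2-fold of its own mean level. The median biological CV there was 45.1% for Slc18a3, 36.6% for Chat, 26.2% for Slc5a7, 21.8% for Chrm3, 44.8% for Chrm2 and 28.64% for Chrna4, all under the gene's own value. It was 28.65% for Ache, 19.3% for Chrm1 and 19.8% for Chrnb2, close to theirs. Between the lowest and the highest mouse, Slc5a7 spanned 80.7-fold and Chat 169-fold, while Chrm1 spanned 1.93-fold and Chrnb2 2.38-fold. The lowest mouse had 4 reads of Slc5a7 and 1 of Chat, so the folds of these genes are imprecise through counting error.

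**Figure D3:**
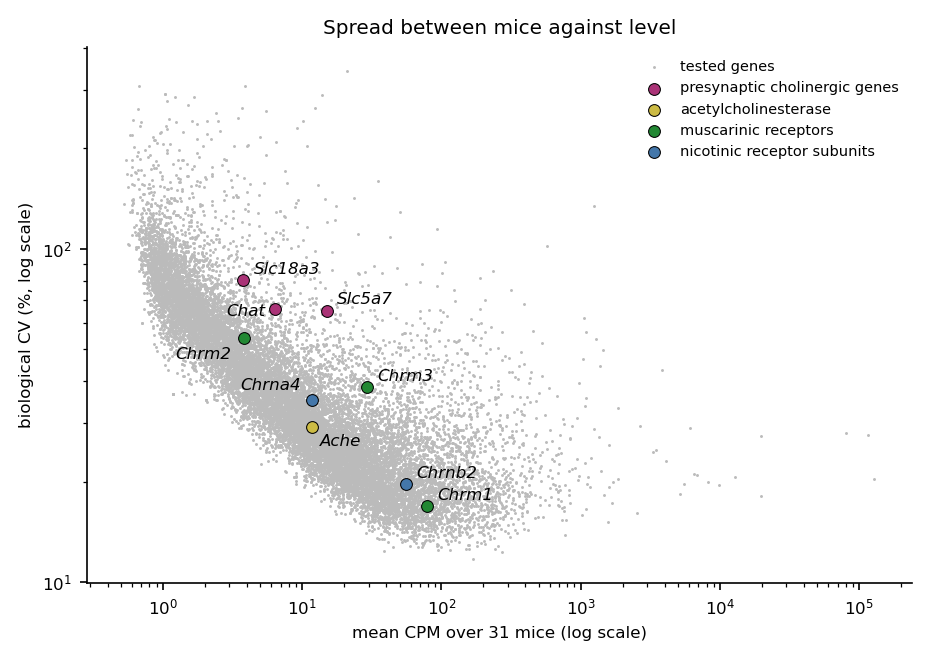
Biological CV (percent, log axis) against mean CPM (log axis) for the 17428 tested genes (grey) and the 9 genes described here (coloured by role). Slc18a3, Chat and Slc5a7, at 80.5%, 65.7% and 65.2%, lie above most genes of their level, and Ache, Chrm1 and Chrnb2 lie among them.

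The lowest presynaptic values belonged to the same 3 mice. A WT female of line 3 in name group X424.C had 1 read of Chat, 0 of Slc18a3 and 4 of Slc5a7. Its 951 reads of Chrm1 were the most of any mouse, but its Chrm1 level of 96.15 CPM was not the highest, at rank 28 of 31 from the lowest. A CYFIP1 OE male of line 3 from the same name group had 7, 0 and 8 reads of these genes, and a CYFIP1 OE female of line 1, the 1 mouse of name group X436B.C, had 2, 1 and 13. Their Chrm3 levels, at 26.3, 41.8 and 17.8 CPM, were inside the range of the other mice. Chrm2 was not so in all 3. The WT female and the CYFIP1 OE male had its lowest and second lowest levels of the 31 mice, at 0.708 and 0.717 CPM. In the CYFIP1 OE female Chrm2 was at 6.27 CPM. The first 2 of these mice had the lowest summed CPM of 6 striatal projection neuron markers (56.5 and 90.3, against a median of 988 in WT and 860 in CYFIP1 OE mice), and the 3 had the highest, the second and the third highest sums of the 6 BLA principal neuron markers, at 3716 CPM for the CYFIP1 OE male, 1885 for the WT female and 1525 for the CYFIP1 OE female. Choroid plexus markers summed to 8314 CPM in the WT female and 4692 CPM in the CYFIP1 OE male. The CYFIP1 OE female had 76.8 CPM, beside a median of 308 CPM over all mice. Central amygdala sums were 49.1, 33.15 and 209 CPM in the same order, beside a median of 136 CPM. How particular the BLA list is to this region was not tested. The CYFIP1 OE male also stood apart over all genes, with a connectivity Z-score, a measure of how well a mouse's profile matches the others, of -4.74 where the next lowest was -1.18. Without the 2 name groups that hold these mice, 26 mice remained and the CV of CPM went from 55.5% to 43.5% for Slc5a7 and from 58.5% to 47.6% for Chat, while that of Chrm1 went from 15.8% to 15.7%. The mice were picked for their low presynaptic values, so a lower CV of the presynaptic genes without them follows from that choice.

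Chat, Slc18a3 and Slc5a7 varied together over the mice. Across the 31 mice, log2 CPM of Chat and Slc5a7 had a Pearson's r of 0.88 and a Spearman's rho of 0.75 (permutation p = 1e-05 for both, the smallest that 100000 resamples can give; adjusted p = 0.00012 and 0.00024 over 36 pairs of the 9 genes). Without the 2 mice farthest from the median of Chat, r was 0.76, and without both name groups it was 0.64 over 26 mice. Within line 1 it was 0.81, within line 3 0.92, within WT 0.90, within CYFIP1 OE 0.88 and within the 7 name groups of at least 2 mice 0.82. Chat and Slc18a3, which share a locus, had an r of 0.83 and a rho of 0.71 (permutation p = 1e-05 and 2e-05, adjusted p = 0.00012 and 0.00024), and Slc18a3 and Slc5a7, which do not, had 0.87 and 0.70 with the same permutation and adjusted p-values. Without the 2 farthest mice these r were 0.71 and 0.75, without both name groups 0.54 and 0.64, and within name groups 0.68 and 0.68.

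The relations of Ache, the enzyme that breaks acetylcholine down, with the presynaptic genes did not pass. Its r was 0.24 with Chat, 0.20 with Slc18a3 and 0.21 with Slc5a7, with a rho of 0.17, 0.27 and 0.23 (permutation p = 0.197, 0.285 and 0.260 for r, adjusted p = 0.394, 0.428 and 0.428). Within line 1 these r were 0.51, 0.60 and 0.59 and within line 3 -0.08, -0.27 and -0.15, and the difference between the lines was not tested. Without the 2 farthest mice they were 0.04, 0.34 and 0.35.

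**Figure D4:**
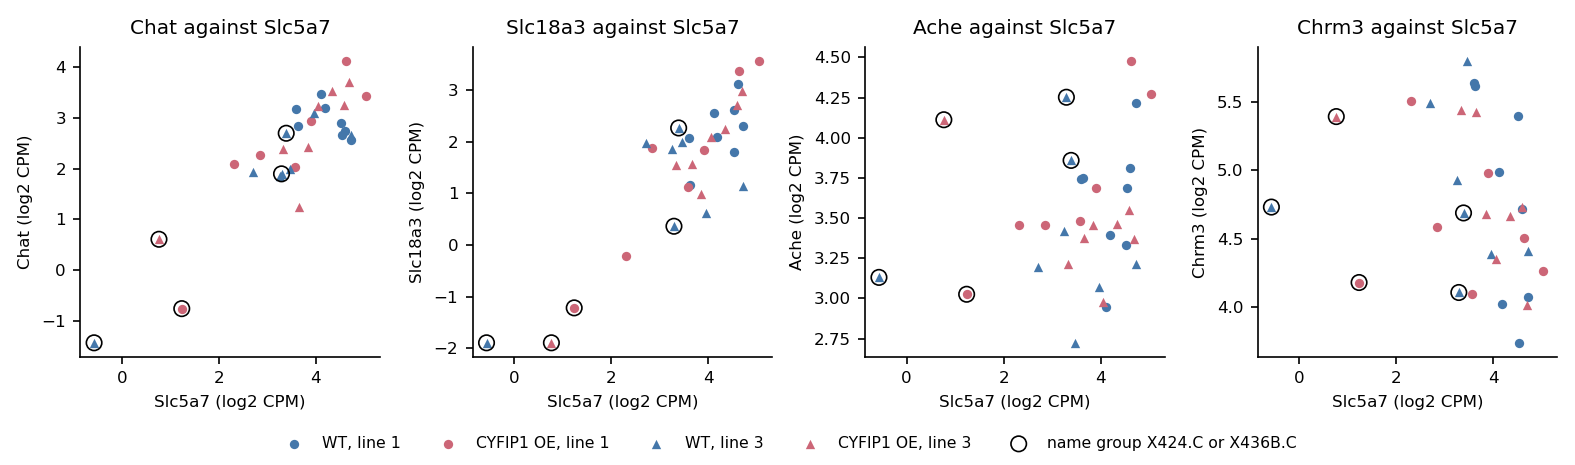
Chat, Slc18a3, Ache and Chrm3 against Slc5a7 (log2 CPM, prior count 2) in each of 31 mice. Circled mice are those of name groups X424.C and X436B.C, and the r with Slc5a7 is 0.88 for Chat, 0.87 for Slc18a3, 0.21 for Ache and -0.27 for Chrm3.

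Among the receptors, 1 pair passed the adjusted threshold. Chrm1 and Chrm3, which act through the same class of G protein, had an r of 0.53 and a rho of 0.59 (permutation p = 0.00225 and 0.00055, adjusted p = 0.0202 and 0.00495), with r at 0.56 without the 2 farthest mice, 0.42 in line 1, 0.62 in line 3, 0.61 in WT and 0.44 in CYFIP1 OE mice. Chrna4 and Chrnb2, subunits of 1 receptor, had an r of -0.10 and a rho of -0.16 (permutation p = 0.586 and 0.398, adjusted p = 0.681 and 0.531; r = -0.17 without the 2 farthest mice). The other pairs with the largest r were Chrm3 with Chrna4 (r = 0.43, rho = 0.38, adjusted permutation p = 0.106 and 0.202), Chrm2 with Slc5a7 (r = 0.37, rho = 0.12, adjusted permutation p = 0.254 and 0.649) and Chrm2 with Slc18a3 (r = 0.34, rho = 0.09, adjusted permutation p = 0.308 and 0.697), and none of them passed. Both Chrm2 relations rest on a few mice, as their r without the 2 farthest mice were -0.14 and -0.10. Chrm2 with Chrm4 gives no r, since Chrm4 was at 0.

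The marker genes of cell types and neighbouring regions that such a punch can hold moved with several of the 10 genes. A marker score is the mean of standardized log2 CPM over a list, and 30 of 90 relations of 9 genes with 10 lists passed an adjusted permutation p of 0.05. Slc5a7 had an r of 0.91 and a rho of 0.82 with a list of 7 genes of basal forebrain and striatal cholinergic neurons (permutation p = 1e-05 for both, adjusted p = 0.000112 and 0.00015; r = 0.87 without the 2 farthest mice). It had an r of 0.83 and a rho of 0.75 with striatal projection neuron markers (permutation p = 1e-05 for both, adjusted p = 0.000112 and 0.00015; r = 0.66 without the 2 farthest mice) and an r of -0.76 and a rho of -0.85 with markers of BLA principal neurons (permutation p = 1e-05 for both, adjusted p = 0.000112 and 0.00015; r = -0.73 without the 2 farthest mice). With the striatal score, Chat had an r of 0.76 and a rho of 0.64 and Slc18a3 0.75 and 0.60 (adjusted permutation p = 0.000112 for both r, 0.00147 and 0.00342 for rho; r = 0.58 and 0.54 without the 2 farthest mice). With the BLA score, Chat had an r of -0.67 and a rho of -0.74 and Slc18a3 -0.73 and -0.72 (adjusted permutation p = 0.0003 and 0.000164 for r, 0.00015 and 0.0004 for rho; r = -0.69 and -0.71 without the 2 farthest mice). Within the lines, the r of Slc5a7 with the striatal score was 0.73 and 0.89, and with the BLA score -0.80 and -0.74. Punches with high presynaptic values thus had high striatal and low BLA principal neuron scores.

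The muscarinic receptors Chrm3 and Chrm1 had r of the opposite sign to the presynaptic genes with the BLA score and with myelin genes. Signs were also opposite with the GABA interneuron, cholinergic neuron and central amygdala lists. Of these receptor r, only that of Chrm3 with the GABA interneuron list passed. The signs were not opposite with astrocyte markers or the striatal score. Chrm3 had an r of 0.61 and a rho of 0.63 with the BLA score (permutation p = 0.00029 and 0.00027, adjusted p = 0.00163 and 0.00202; r = 0.56 without the 2 farthest mice), -0.74 and -0.76 with astrocyte markers (permutation p = 1e-05 for both, adjusted p = 0.000112 and 0.00015; r = -0.70) and -0.63 and -0.67 with myelin genes (permutation p = 0.00017 and 8e-05, adjusted p = 0.00109 and 0.00072; r = -0.75). Chrm1 had an r of 0.47 and a rho of 0.57 with the BLA score (permutation p = 0.00838 and 0.00108, adjusted p = 0.0302 and 0.0054; r = 0.41) and 0.10 and 0.11 with the striatal score (adjusted permutation p = 0.718 and 0.722). With myelin genes it had -0.58 and -0.58 (adjusted permutation p = 0.00381 and 0.00444), and with astrocyte markers -0.53 and -0.55 (adjusted permutation p = 0.00951 and 0.00675). With astrocyte markers, Chat, Slc18a3 and Slc5a7 had r of -0.13, -0.14 and -0.08. With myelin genes, Slc5a7 had an r of 0.68 and a rho of 0.72 (permutation p = 2e-05 and 1e-05, adjusted p = 0.000164 and 0.00015; r = 0.72 without the 2 farthest mice), and Chat had 0.61 and 0.57 (permutation p = 0.00016 and 0.00098, adjusted p = 0.00109 and 0.00519; r = 0.64). With the GABA interneuron list, Slc18a3 had an r of 0.74 and a rho of 0.59 (permutation p = 2e-05 and 0.00048, adjusted p = 0.000164 and 0.00332; r = 0.50 without the 2 farthest mice). Chat and Slc5a7 had r of 0.59 and 0.68 with it (adjusted permutation p = 0.00927 and 0.00126). Chrm3 had -0.42 and Chrm1 -0.34 (adjusted permutation p = 0.0463 and 0.141). In this list Gad1, Gad2 and Slc32a1 are not particular to interneurons, beside Sst, Pvalb and Vip. The WT female and the CYFIP1 OE male of name group X424.C had the lowest sums of both this list and the striatal list. Ache had r from -0.32 to 0.43 with the 10 lists, the highest with microglia (rho = 0.25; permutation p = 0.0152 and 0.171, adjusted p = 0.0463 and 0.329; r = 0.33 without the 2 farthest mice). Chrnb2 had an r of 0.54 and a rho of 0.48 with central amygdala markers (permutation p = 0.00156 and 0.00674, adjusted p = 0.00739 and 0.0276; r = 0.45 without the 2 farthest mice).

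**Figure D5:**
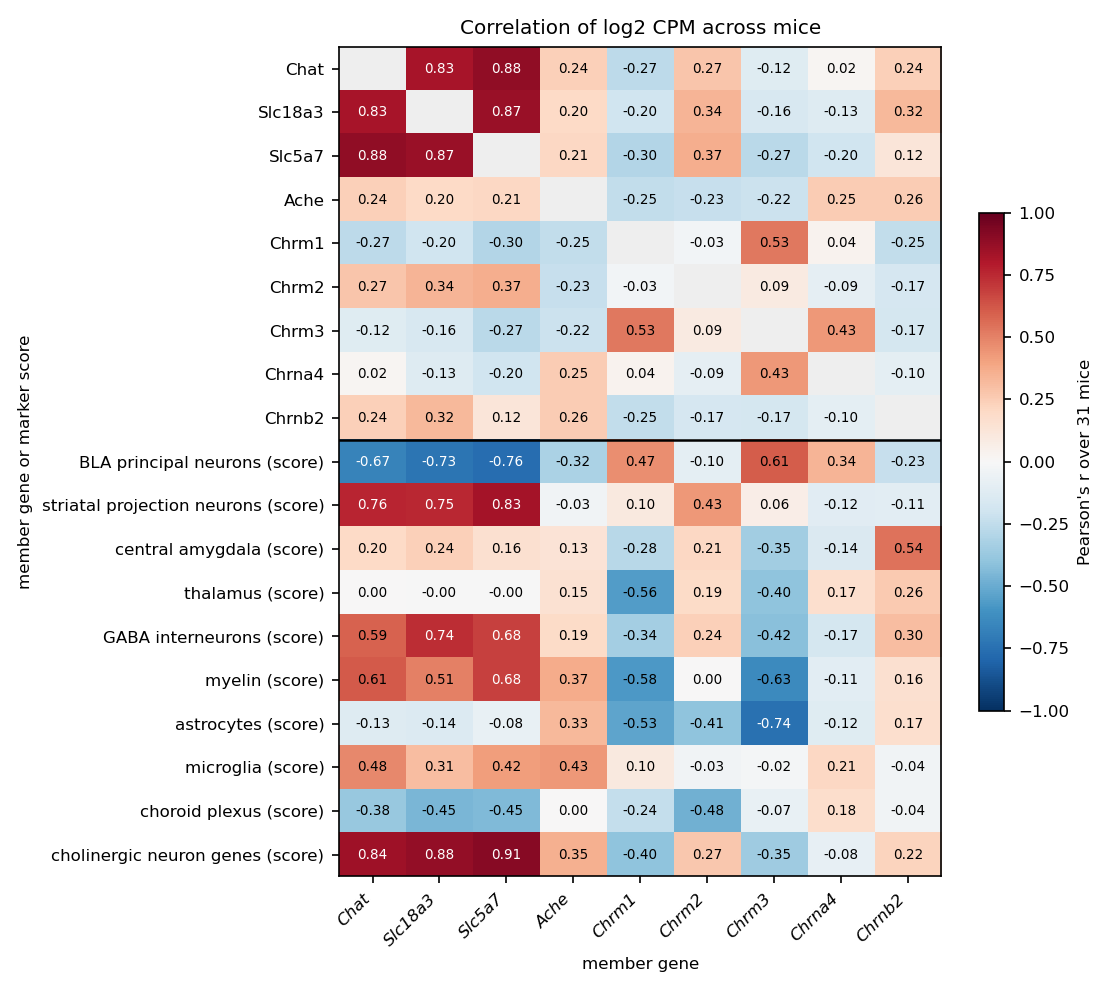
Pearson's r over 31 mice between log2 CPM of the 9 tested genes (columns) and each other (upper rows) or the marker scores (lower rows). Red is positive and blue negative. Chat, Slc18a3 and Slc5a7 form 1 block, with r from 0.83 to 0.88, and share positive r with the striatal score (0.75 to 0.83) and negative r with the BLA principal neuron score (-0.67 to -0.76).

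The summed levels of those lists overlapped between the genotypes and between the lines. All 6 BLA principal neuron markers passed the filter, with sums of 523 to 1885 CPM in WT and 519 to 3716 CPM in CYFIP1 OE mice. Of 6 striatal projection neuron markers 5 passed, with sums of 56.5 to 1744 CPM in WT and 90.3 to 1986 CPM in CYFIP1 OE mice, and the other marker, Drd2, had a median of 0 reads. The 7 cholinergic neuron genes all passed, with sums of 6.37 to 64.0 CPM in WT and 5.91 to 77.6 CPM in CYFIP1 OE mice, and the 6 myelin genes summed to 1355 to 8386 CPM in WT and 1061 to 4844 CPM in CYFIP1 OE mice. The part of these cells in the levels of the 10 genes was not tested, but the genotype difference was refitted with the striatal score as a covariate, a choice made after the data were seen, and no gene passed an unadjusted p of 0.05. Over all samples, total counts were 5286708 to 8685308 per mouse, and mouse Cyfip1, whose reads can include only what maps to the mouse gene, was at 33.5 ± 4.48 CPM in WT (n = 16) and 33.0 ± 3.66 CPM in CYFIP1 OE mice (n = 15).

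The genes most like Slc5a7 over the 31 mice, among 10965 genes with a mean of at least 5 CPM, were Isl1 (r = 0.94), Slc10a4 (r = 0.91), Unc13c (r = 0.91), Six3 (r = 0.90) and Chat (r = 0.88). Isl1 and Six3 are transcription factors of the developing ventral forebrain, and Slc10a4 is a vesicle protein of cholinergic and monoamine neurons. The genes most like Chat were Slc5a7 (r = 0.88), Syt2 (r = 0.88), Unc13c (r = 0.86), Prkch (r = 0.82) and Rgs9 (r = 0.81), of which Syt2 and Unc13c act in vesicle release and Rgs9 is abundant in striatal neurons. Those most like Chrm2 had lower r and none of these names, with Eif3c at 0.68, Dhx36 at 0.67, Smad1 at 0.66, Gm37376 at 0.66 and Gm6136 at 0.66. These r have no p, since they are the largest of many.

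Most of the other acetylcholine receptor subunits were near the limit of detection. Of 15 further receptor genes 4 passed the filter, Chrnb3 with a mean of 5.93 CPM, Chrna1 with 3.35, Chrnb4 with 1.23 and Chrna2 with 0.819, and none had an unadjusted genotype p under 0.05. Chrna7, the subunit of the homomeric neuronal receptor, had a median of 1 read and at most 17, and Chrm5 a median of 0 and at most 30. Chrnb4 had the smallest genotype p of these 4, with 1.64 ± 1.59 CPM in WT and 0.801 ± 0.792 CPM in CYFIP1 OE mice (log2 fold change -1.03 ± 0.55; edgeR adjusted p = 0.999). Of the 3 genes for cholinesterase and its anchors 2 passed the filter, Bche with 1.97 and Prima1, the membrane anchor of acetylcholinesterase, with 1.39 CPM.

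None of the 48 other pathway genes passed an adjusted p of 0.05 for genotype, line, their interaction or sex, and 35 of the 48 were tested. Unadjusted edgeR p-values under 0.05 numbered 0 for genotype, 0 for line, 7 for the interaction and 1 for sex among the 35, against 4.3%, 3.31%, 8.1% and 4.62% of all genes. All 7 tested genes of choline supply had genotype values below 0, with a median log2 fold change of -0.15 beside -0.005 over all genes, and none had an unadjusted p under 0.05. Slc44a1, a choline transporter of most cells, was at 41.2 ± 14.4 CPM in WT and 33.6 ± 10.3 CPM in CYFIP1 OE mice (log2 fold change -0.29 ± 0.16; edgeR adjusted p = 0.999). The 6 nicotinic receptor chaperones and Ly6 proteins, which assist or modulate nicotinic receptors, were tested and had a median of 0.002. The median was 0.06 for the 9 genes of muscarinic signalling and -0.04 for the 7 cholinergic neuron genes. For the interaction of line and genotype, 5 of the 9 muscarinic signalling genes had an unadjusted p under 0.05, against 8.1% of all genes. They were the G protein subunits Gnai1 (-0.78 ± 0.23) and Gnaq (-0.56 ± 0.20), the potassium channel subunit Kcnq3 (0.51 ± 0.19), the regulator Rgs4 (1.33 ± 0.52) and the phospholipase Plcb1 (0.67 ± 0.26), all on the log2 scale, and their smallest adjusted edgeR p was 0.527. Their r with Slc5a7 over the mice were -0.69, -0.57, 0.50, 0.68 and 0.59, in the same order, given as a description with no test, and the part of tissue makeup in them was not tested.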

How the data were processed

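RNA of the BLA, with both sides pooled, was measured by QuantSeq in 31 mice, and each mouse was 1 replicate. The authors mapped reads to GRCm38 with STAR, quantified them with Salmon and deposited expected counts (estimated counts with decimals, not normalized) per gene and mouse. Picard and MultiQC served for quality control in the submitters' processing notes. Genotype, line, sex and age came from the sample labels, and name groups from the prefix of the titles. The annotation release in the methods and the GENCODE release used here for symbols and positions may differ, and 48349 of 48709 identifiers had a symbol.

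Counts were rounded, a gene was tested if 20% of the mice or more held 10 or more of its reads (17428 genes), and edgeR 4.0.16 in R 4.3.3 fitted sex, line and genotype with TMM and quasi-likelihood F tests, Benjamini-Hochberg adjusted over all genes tested. The study also used 5 sequencing components, for which 5 surrogate variables (sva 3.50.0) stood in as an alternative, and DESeq2 1.42.0 was another. The study also dropped outlying samples with a connectivity Z-score under -2. Here the mouse at -4.74 was kept in the fit reported and in the correlations, and leaving it out was a further alternative. Correlations used log2 CPM with a prior count of 2 and two-sided permutation tests of 100000 resamples, over 36 pairs because Chrm4 was not tested. Total counts were 5286708 to 8685308 per mouse, and on TMM-adjusted totals 3 reads were 0.303 to 0.570 CPM, a floor for counting error only. On data simulated from these mice, with 200 of 17428 genes changed at a log2 fold change of 1, the genotype test called 145 of the 200 and 3 others. For the interaction, at a log2 difference of 2, it called 155 and 5 others. The changed genes were drawn at random without regard to their spread. These counts therefore do not give the rate for Slc5a7, Chat and Slc18a3, whose biological CV was 65.2%, 65.7% and 80.5% beside a median of 34.2%.

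The 10 genes and all lists were chosen with earlier results of these data known. The genes named are the 10, fixed pairs of them plus the 3 other pairs with the largest r, the 5 genes most like Chat, Slc5a7 and Chrm2 (Chrm4 could not be fitted), and at most 5 genes per pathway list with the smallest p for a term. The p-values measure the spread between mice, whose litters are not given. No 2 mice had near-identical profiles (highest correlation 0.950). Leaving out name groups, and the striatal score as a covariate, were chosen after seeing the data.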

Additional observations from a re-analysis of the deposited data

Results flagged for a closer look

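Of 36 sets of a tested gene in 1 genotype and line, 1 had a mouse whose gap to its neighbour was too large a share of the range by Dixon's test, where chance gives about 1 in 20. It was Ache in the CYFIP1 OE mice of line 3, with the highest mouse at 17.0 CPM and a gap of 0.594 of the range (critical value 0.526, n = 8). That mouse is the male of name group X424.C with the connectivity Z-score of -4.74, and it was also among the 3 with the lowest presynaptic reads. Without it, Ache had a line difference of -0.34 on the log2 scale (unadjusted edgeR p = 0.0363, adjusted p = 1.000), where it was -0.29 with all mice.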

How the results depend on the processing

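In each of the 4 comparisons and under each alternative run, none of the genes described here that were tested passed an adjusted p of 0.05. Counts at an unadjusted p under 0.05, 0 in the fit reported, went to 1 for genotype with 5 surrogate variables (Chrm3, -0.31, unadjusted edgeR p = 0.0214, adjusted p = 0.869). For line they went to 1 with age as a covariate, with 5 surrogate variables and without the mouse of lowest connectivity (Z-score under -2), to 2 in WT mice alone, to 3 and 2 without name group X424.C or X436B.C, and to 4 in WT mice alone without X424.C. The shares of all genes under that threshold in these settings are not given. Whether the counts exceed those shares therefore cannot be told from them. Of the 122, 122, 68 and 32 log2 fold changes under alternatives for genotype, line, interaction and sex, 23, 11, 4 and 0 had the other sign.

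For genotype these were, in line 1 alone, Chat (-0.27), Slc18a3 (-0.29), Slc5a7 (-0.61) and Chrnb2 (-0.038). In line 3 alone it was Chrm2 (-0.14). With 5 surrogate variables they were Slc18a3 (-0.019), Slc5a7 (-0.019), Chrm1 (-0.034), Chrna4 (-0.023) and Chrnb2 (-0.00). In name groups with both genotypes they were Slc18a3 (-0.12), Slc5a7 (-0.36), Chrm2 (-0.83) and Chrm3 (0.019). With age as a covariate they were Chrm2 (-0.19), Chrm3 (0.026) and Chrnb2 (-0.025), and without the mice aged 77 days Chrm2 (-0.22), Chrm3 (0.007) and Chrnb2 (-0.013). Slc5a7 was at -0.039 with the striatal score and -0.12 without X424.C, and Chrm2 at -0.051 without X436B.C.

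For line, Chat (0.15), Slc5a7 (0.28) and Chrna4 (-0.035) differed in sign in CYFIP1 OE mice alone, and Chrm3 did with age (-0.088), with 5 surrogate variables (-0.044), without the mice aged 77 days (-0.021) and in WT mice alone (-0.015). Chrna4 did with 5 surrogate variables (-0.072), without the mouse with a Z-score under -2 (-0.011), without X424.C (-0.028) and without X436B.C (-0.004). For the interaction, Ache (0.087) and Chrm3 (-0.018) did without X424.C, and Chrm2 (0.14) and Chrm3 (-0.022) without the mice aged 77 days. The cause was not tested. Under the settings tried 1 at a time, the r of Chat and Slc5a7 lay between 0.79 (without X424.C) and 0.89 (prior count 0.5), and it was 0.76 without the 2 farthest mice and 0.64 without both name groups. No paired analysis was possible because replicate numbers are names in accession order, but the fit with name group as a covariate, in groups with both genotypes, is given above. The depth limits Slc18a3, Chrm2 and Chat, with medians of 25, 27 and 48 reads.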
